A study of Mus musculus with 84 samples.

Results

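Liver RNA of mice fed the organophosphate pesticide (OPP) methidathion (MT) at 10 or 25 ppm, the lower of its 4 doses, was compared with that of control mice. The comparison held 21 of the 84 mice of the series. They were the 7 mice at MT 10 ppm and the 7 at MT 25 ppm, pooled as 14 low-dose mice, and the 7 mice of the control group at 0 ppm. Mice were placed in these groups by their labelled treatment and by nothing measured in them. All were male B6C3F1 mice, a hybrid laboratory strain, labelled as 8 weeks old, and received AIN-93G rodent diet with or without MT for 7 days. Gene expression was measured on total RNA of frozen liver with TempO-Seq, a targeted assay that joins paired probes lying next to each other on an mRNA and counts the joined products by sequencing. The study ran in blocks, and blocks 1, 3 and 4 gave 2, 3 and 2 mice to every group. The RNA isolator was labelled EA (Expression Analysis) for 18 of the 21 mice and EPA for 2 control mice and 1 mouse at MT 10 ppm. Livers are mixtures of cells, so fewer cells of a type and less RNA per cell cannot be told apart.

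MT is activated in the liver by cytochromes P450 to its oxon, which inhibits acetylcholinesterase, the enzyme that ends cholinergic signalling. Carboxylesterases, butyrylcholinesterase and paraoxonases of the liver bind or hydrolyse such oxons. Foreign compounds can also act on the nuclear receptors CAR (Nr1i3) and PXR (Nr1i2) of hepatocytes, whose known targets include genes of the Cyp2b, Cyp2c and Cyp3a families.

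Total counts of the 21 mice lay between 9324649 and 14113917, so that 3 counts, the least taken as measured, stood for 0.213 to 0.322 CPM (counts scaled to 1000000 per mouse). This covers counting error only, since reads without molecular identifiers are not independent molecules. Pearson correlations of log2 levels between mice of the same group lay between 0.9545 and 0.9929. The lowest median correlation with the other mice was that of control replicate 1 (0.9691), an EA mouse of block 1. RNA isolator and block moved many genes over the whole series: 4027 of 10415 genes (38.7%) differed between EPA and EA mice at an adjusted p under 0.05, and 4160 differed between blocks. Both were covariates in every fold change and test unless another model is named, with block alone as covariate in EA mice and none within a block. Hepatocyte markers, among them Alb, Apoa1 and Ttr, had summed levels of 56392 to 67262 CPM in control mice, 57422 to 62632 in those fed 10 ppm and 56155 to 65830.5 at MT 25 ppm, and none of the 16 was at 0.

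No gene passed the test when the mean of both low doses was compared with the control. Of 10415 genes with a median count above 8, 0 (0%) had an adjusted p under 0.05 by edgeR's quasi-likelihood test, and the smallest adjusted p was 0.232, for Bccip. An unadjusted p under 0.05 was found for 833 genes (8% of those tested), with 376 (3.61%) higher and 457 (4.39%) lower at the low doses. This count depended on single mice: it was 498 without control replicate 5 and 1020 without control replicate 3. DESeq2 also called 0 genes, with 845 at an unadjusted p under 0.05. For 0 genes did the CPM of all 14 low-dose mice lie outside the range of the 7 control mice. The fold change was estimated at 2-fold or more for 20 genes, 9 higher and 11 lower, among them Magoh, Gadd45g and Cish. Unless another quantity is named, the value given for a gene is its log2 fold change at the mean of both low doses against control, with its adjusted p by edgeR.

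**Figure D1:**
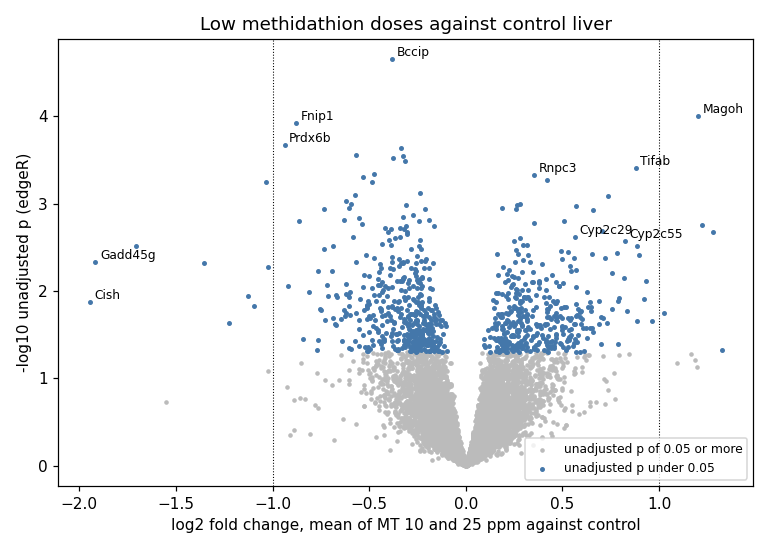
Log2 fold change of each of 10415 genes at the mean of MT 10 and 25 ppm against control (x axis; dotted lines mark 2-fold) against -log10 of the unadjusted p by edgeR (y axis), with one point a gene and the 833 genes at p under 0.05 in blue. Bccip has the smallest p, and none of the points passed the adjusted threshold.

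The width of the intervals limits what a count of 0 shows. The 95% interval of the fold change lay within 2-fold in both directions for 10062 genes (96.6%) and within 1.5-fold for 8208 (78.8%). From the estimate to either end of the interval was 0.259 on the log2 scale for the median gene, 0.501 for the 1399 genes with a median count of at most 20, and 0.173 for the 1565 genes above 1000. These intervals are not adjusted for the number of genes tested.

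Among the genes lower at the low doses, the 10 with the smallest unadjusted p are given as values, since none passed the adjusted threshold. Bccip (chr7:133311038-133322876, GRCm39), which encodes a partner of BRCA2 in DNA repair, came first. Bccip was measured at 80.9, 102 and 130.2 CPM in the lowest, median and highest control mouse, at 68.7, 71.5 and 86.8 with MT 10 ppm and at 65.5, 81.1 and 86.4 with MT 25 ppm. The low-dose mice overlapped with the control mice, with 8 of 14 below the lowest control mouse. The log2 fold change was -0.38 (95% interval -0.55 to -0.21, unadjusted p = 2.23e-05, adjusted p = 0.232). Among EA mice it was -0.45, and among EA mice within blocks 1, 3 and 4 it was -0.42, -0.40 and -0.42, with 1 EA mouse at MT 10 ppm in block 1 and 1 EA control mouse in block 4. In block 1, control replicates 1 and 2 had 130.2 and 85.9 CPM of Bccip, and the EA low-dose mice had 79.4 to 86.4. Control replicate 1 is the mouse with the lowest median correlation. Bccip was chosen on this contrast in these mice, so like values in the blocks are no independent support. Fnip1 encodes a partner of folliculin in the sensing of nutrients. In the control mice Fnip1 had a lowest, median and highest level of 3.82, 11 and 19 CPM, against 3.04, 5.28 and 10.9 at MT 10 ppm and 4.73, 5.93 and 9.12 at MT 25 ppm. Of the 14 low-dose mice, 1 lay below every control mouse. The fitted log2 fold change was -0.88 (95% interval -1.32 to -0.44, unadjusted p = 0.000121, adjusted p = 0.370). Prdx6b is a copy of the peroxiredoxin gene Prdx6. The lowest, median and highest levels of Prdx6b were 1.20, 2.80 and 5.08 CPM in the control mice, 0.818, 1.43 and 3.27 at MT 10 ppm and 0.951, 1.45 and 2.76 at MT 25 ppm. Its log2 fold change was -0.94 (95% interval -1.43 to -0.45, unadjusted p = 0.000217, adjusted p = 0.370), and 4 of 14 low-dose mice lay below every control mouse. Without control replicate 3, an EPA mouse, Bccip and Prdx6b passed (adjusted p = 0.0486 for both by edgeR), with 2 genes called in all. Leaving out other control mice moved the result the other way. The smallest adjusted p of any gene by edgeR was 0.508 without control replicate 1 and 0.532 without control replicate 5. For the other 7 the log2 fold changes lay between -0.57 and -0.31. The values were -0.34 (adjusted p = 0.370) for Twsg1, a modulator of BMP signalling, -0.57 (adjusted p = 0.370) for Ptk7, a receptor of the Wnt pathway, -0.33 (adjusted p = 0.370) for Mroh1, and -0.37 (adjusted p = 0.370) for Prkcsh, a subunit of the glucosidase that trims glycoproteins in the endoplasmic reticulum. Brd1, a chromatin reader, had -0.31 (adjusted p = 0.370), Ubtd1 had -0.48 (adjusted p = 0.370) and Psma7, a subunit of the proteasome core, had -0.53 (adjusted p = 0.370). RNA isolator moved with some of these genes: the EPA minus EA difference was 0.63 for Twsg1, 0.33 for Mroh1 and 0.30 for Brd1 on the log2 scale. The EA-only values of Twsg1 and Mroh1 were -0.36 and -0.37.

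Among the genes with higher values, Magoh led. It encodes a core protein of the exon junction complex, which is laid on spliced mRNA. Magoh was measured at 0.235, 1.01 and 1.16 CPM in the lowest, median and highest control mouse, at 1.23, 2.21 and 2.73 with MT 10 ppm and at 0.886, 1.23 and 2.69 with MT 25 ppm. Of the 14 low-dose mice, 11 lay above every control mouse. The log2 fold change was 1.2 (95% interval 0.61 to 1.79, unadjusted p = 0.0001, adjusted p = 0.370). Tifab, a regulator of innate immune signalling, was near the detection limit. In the control mice Tifab had a lowest, median and highest level of 0.256, 0.450 and 0.712 CPM, against 0.614, 0.804 and 1.28 at MT 10 ppm and 0.536, 0.788 and 1.08 at MT 25 ppm. The fitted log2 fold change was 0.88 (95% interval 0.39 to 1.37, unadjusted p = 0.000394, adjusted p = 0.370), with 11 of 14 low-dose mice above every control mouse. Rnpc3 encodes a protein of the minor spliceosome, and its groups overlapped almost wholly. The lowest, median and highest levels of Rnpc3 were 15.7, 26.3 and 34 CPM in the control mice, 25, 26.9 and 43.8 at MT 10 ppm and 22.9, 26.6 and 36.1 at MT 25 ppm. Its log2 fold change after adjustment for block and isolator was 0.36 (95% interval 0.16 to 0.55, unadjusted p = 0.000473, adjusted p = 0.370), and the EPA minus EA difference was 0.48. In EA mice alone it was 0.40. P3h1, which encodes a prolyl hydroxylase of collagen, had a log2 fold change of 0.42 (adjusted p = 0.370), and 14 of 14 low-dose mice lay above the control median. The values were 0.74 (adjusted p = 0.394) for Enox2, 0.28 (adjusted p = 0.394) for Ndufv2, a subunit of respiratory complex I, 0.27 (adjusted p = 0.394) for Fubp1, a regulator of Myc transcription, and 0.57 (adjusted p = 0.394) for Siah2, a ubiquitin ligase. They were 0.19 (adjusted p = 0.394) for Got2-ps1, a copy of the gene of mitochondrial aspartate aminotransferase, and 0.26 (adjusted p = 0.394) for Naa12, a protein acetyltransferase subunit. The smallest and largest adjusted p of these 10 genes were 0.370 and 0.394.

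**Figure D2:**
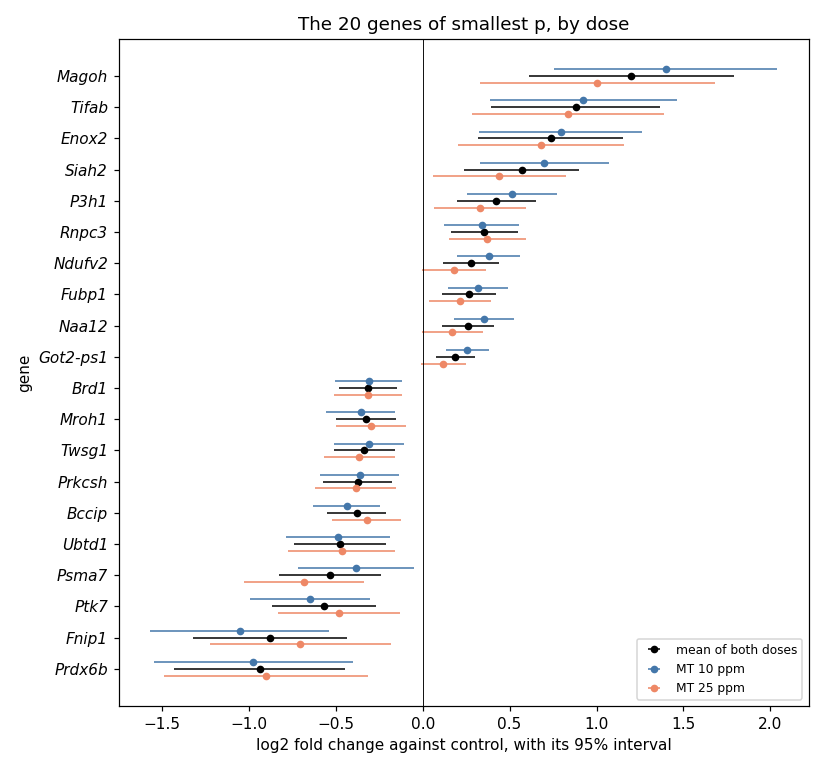
Log2 fold change against control (x axis) with its 95% interval for the 10 genes of smallest p in each direction (y axis), at the mean of both doses (black), MT 10 ppm (blue) and MT 25 ppm (orange). The estimates of both doses lie on the same side of 0 for all 20 genes, which were chosen on the mean of both doses, and both doses share the 7 control mice.

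Prdx6b, Magoh and Got2-ps1 have close copies elsewhere in the genome. The counts were estimated by a method that can split a read between genes, so the members of a pair with near-identical sequence are uncertain. Got2 itself was not analysed here. Prdx6, named here after its values were seen, lay on the other side of 0 from Prdx6b, with a log2 fold change of 0.57 (adjusted p = 0.496). The summed level of Prdx6 and Prdx6b had a median of 5.21 CPM in the control mice, 5.74 at MT 10 ppm and 3.42 at MT 25 ppm. Prdx6b made up a median of 55.6%, 28.1% and 37.9% of that sum. Magohb, the paralog of Magoh and also named after its values were seen, had a log2 fold change of 0.047 (adjusted p = 0.962).

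When each dose was tested on its own, no gene passed either. At MT 10 ppm 0 of 10415 genes (0%) had an adjusted p under 0.05 by edgeR and 1038 (9.97%) had an unadjusted p under 0.05, 511 (4.91%) higher and 527 (5.06%) lower. At MT 25 ppm the counts were 0 (0%) and 603 (5.79%), 265 (2.54%) higher and 338 (3.25%) lower. DESeq2 called 0 genes at both doses. At MT 10 ppm the count at an unadjusted p under 0.05 by edgeR was 660 without control replicate 5 and 1277 without control replicate 4. In EA mice alone (6 at MT 10 ppm against 5 control mice), 27 genes passed at MT 10 ppm, 10 higher and 17 lower, and 8 of them differed by at least 2-fold. These 27 genes included 6 of the 20 genes above, namely Bccip, Fnip1, Prdx6b, Magoh, P3h1 and Naa12. In the same mice 0 genes passed at MT 25 ppm and 0 at the mean of both doses. With the model fitted to the 21 mice alone, 1 gene, Klhdc7b, passed at the mean of both doses (log2 fold change 1.55, adjusted p = 0.00752 by edgeR) and at MT 25 ppm. Its value in the model of all mice was 1.28 (unadjusted p = 0.00210, adjusted p = 0.428), and it was named after its values were seen.

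Between the 2 low doses, with no control mouse in the contrast, Lum differed. Lum (chr10:97400990-97408577, GRCm39) encodes lumican, a proteoglycan of the extracellular matrix made by stellate cells and fibroblasts. Lum was measured at 17.3, 20.9 and 21.6 CPM in the lowest, median and highest control mouse, at 13.7, 18.4 and 19.9 with MT 10 ppm and at 20.9, 26 and 33.6 with MT 25 ppm. Every mouse at MT 25 ppm lay above every mouse at MT 10 ppm, as for 5 of 10415 genes (0.048%; 10 genes, 0.096%, were lower without overlap), and the control mice overlapped with both doses. The log2 difference of MT 25 ppm from MT 10 ppm was 0.60 (95% interval 0.37 to 0.83, unadjusted p = 1.37e-06, adjusted p = 0.0143), and Lum was the only gene of 10415 (0.0096%) that passed, where 803 (7.71%) had an unadjusted p under 0.05, 396 (3.8%) higher and 407 (3.91%) lower. The log2 difference among EA mice within blocks 1, 3 and 4 was 0.64, 0.55 and 0.65, the first against 1 EA mouse at MT 10 ppm. The call was lost with library size alone as the scaling, in both limma fits, in the 21 mice alone, with no covariates, with RNA isolator alone, within each single block, and without MT 10 ppm replicate 2 or 6 or MT 25 ppm replicate 1 or 5, with 0 genes called in each. DESeq2 gave Lum an unadjusted p of 2.36e-07 and no adjusted p, and it called Saa3 and Birc6, the latter named after its values were seen. Against the control, Lum stood at -0.22 (adjusted p = 0.513) at MT 10 ppm and 0.38 (adjusted p = 0.654) at MT 25 ppm. No other stellate cell or fibroblast marker passed. Col1a1 had a log2 difference of 0.68 (adjusted p = 0.615) and Col3a1 of 0.67 (adjusted p = 0.572) between the doses, both collagen genes, with Dcn at 0.16 (adjusted p = 0.722). The summed level of the 16 markers of that list ranged from 299.6 to 393 CPM at MT 10 ppm and from 299 to 461 at MT 25 ppm, and its part in the difference of Lum was not tested.

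**Figure D3:**
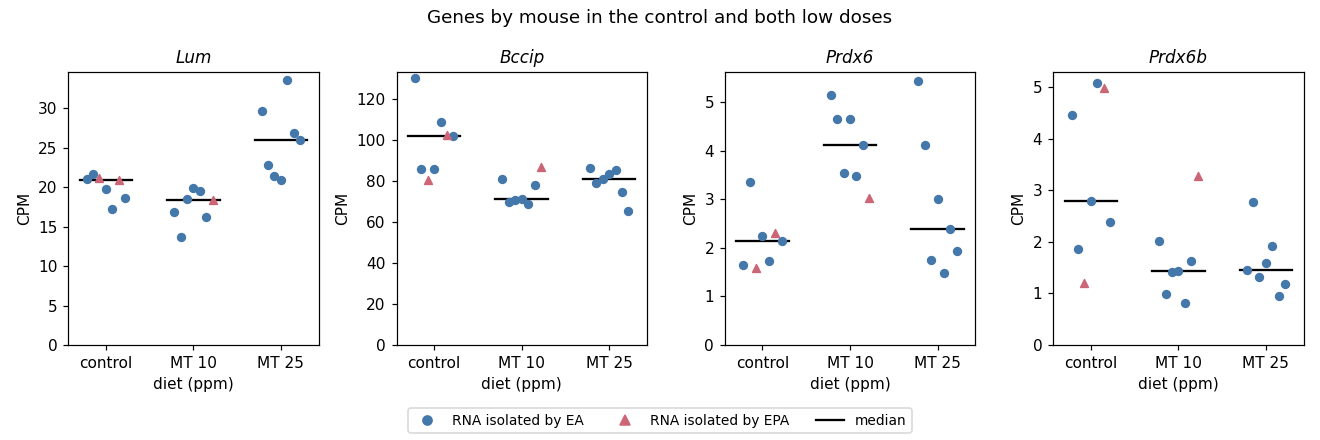
CPM (y axis, from 0) of Lum, Bccip, Prdx6 and Prdx6b in each of the 7 mice a group (x axis: control, MT 10 and MT 25 ppm), with EA mice as circles, EPA mice as triangles and a bar at the group median. All mice at MT 25 ppm lie above all mice at MT 10 ppm for Lum, and control mice and low-dose mice overlap for the other genes.

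The known CAR and PXR targets of the Cyp2c and Cyp3a families were followed from the control through the low doses to MT 100 ppm, with MT 50 ppm between. At the low doses none passed the adjusted threshold against control. MT 50 and 100 ppm were tested against the low doses and not against control. On chromosome 19 of GRCm39, Cyp2c29 lies at chr19:39257849-39319157, Cyp2c55 at chr19:38995462-39031144, Cyp2c50 at chr19:40078085-40102430 and Cyp2c54 at chr19:40025117-40062282, and Cyp3a11 lies at chr5:145791236-145816867. Cyp2c29, an epoxygenase of arachidonic acid, is a known target. In the control mice Cyp2c29 had a lowest, median and highest level of 593, 919 and 1579 CPM, against 861, 1390.1 and 2005 at MT 10 ppm and 1158, 1602 and 2061 at MT 25 ppm. Of the 14 low-dose mice, 7 lay above the highest control mouse, and the log2 fold change of the mean of both doses was 0.57 (95% interval 0.21 to 0.92, unadjusted p = 0.00244, adjusted p = 0.451). In EA mice alone it was 0.46, and within blocks 1, 3 and 4 it was 0.36, 0.87 and -0.22, the last against 1 EA control mouse. The lowest, median and highest levels of Cyp2c55 were 0.783, 1.87 and 4.00 CPM in the control mice, 1.28, 4.54 and 5.54 at MT 10 ppm and 2.30, 3.24 and 4.47 at MT 25 ppm. Its log2 fold change was 0.82 (95% interval 0.29 to 1.35, unadjusted p = 0.00266, adjusted p = 0.454), and 6 of 14 low-dose mice lay above the highest control mouse. Cyp2c50 had 0.63 (95% interval 0.16 to 1.1, unadjusted p = 0.0102, adjusted p = 0.520) and Cyp2c54 0.33 (95% interval -0.049 to 0.70, unadjusted p = 0.0873, adjusted p = 0.672).

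Cyp3a11, the main drug-oxidising P450 of the mouse Cyp3a family, had different estimates at the low doses. Cyp3a11 was measured at 21.8, 42.2 and 73.2 CPM in the lowest, median and highest control mouse, at 67.7, 83.6 and 112 with MT 10 ppm and at 27.8, 36.2 and 95.2 with MT 25 ppm. At MT 25 ppm the mice of block 1 had 80.1 and 95.2 CPM, and those of blocks 3 and 4 had 27.8 to 48.5. For the mean of both doses, the log2 fold change among EA mice was 1.03, 0.048 and -0.12 within blocks 1, 3 and 4. The last was against 1 EA control mouse. The log2 fold change was 0.81 (95% interval 0.33 to 1.29, unadjusted p = 0.00135, adjusted p = 0.255) at MT 10 ppm and -0.042 (95% interval -0.53 to 0.45, unadjusted p = 0.867, adjusted p = 0.985) at MT 25 ppm. The difference of MT 25 ppm from MT 10 ppm was -0.85 (95% interval -1.33 to -0.37, unadjusted p = 0.000756, adjusted p = 0.368), short of the threshold. Cyp2b10, the classical CAR target, had a median count of 1 over all mice and was left out of the test. Its highest count in a mouse was 2 in the control group, where the lowest was 0, 1 in mice fed 10 ppm and 7 in those fed 25 ppm, and at MT 100 ppm the counts ran from 6 to 294. Por, the electron donor of P450 enzymes, had 0.075 (adjusted p = 0.963), Alas1, which starts heme synthesis, -0.42 (adjusted p = 0.875), and the receptor genes Nr1i2 and Nr1i3 -0.07 (adjusted p = 0.884) and 0.11 (adjusted p = 0.922). The EPA minus EA difference was -0.57 for Por and -0.79 for Alas1.

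The upstream sequences of these genes are shown because 2 of these genes set MT 100 ppm apart from the low doses. RefSeq start-site windows of 300 bases (250 before and 50 from the start) in the GRCm38.p6 build, an older build than that of the counts, were found for Cyp2c29, Cyp2c55, Cyp2c50 and Cyp3a11, and 3 of them are printed, with the hexamers AGGTCA and AGTTCA and their reverse complements TGACCT and TGAACT in capitals. Receptors such as CAR and PXR bind pairs of hexamers of this kind. Cyp2c29 at chr19:39286835-39287134 (forward strand), Cyp2c55 at chr19:39006769-39007068 (forward strand) and Cyp3a11 at chr5:145879805-145880104 (reverse strand) read as follows.
Cyp2c29: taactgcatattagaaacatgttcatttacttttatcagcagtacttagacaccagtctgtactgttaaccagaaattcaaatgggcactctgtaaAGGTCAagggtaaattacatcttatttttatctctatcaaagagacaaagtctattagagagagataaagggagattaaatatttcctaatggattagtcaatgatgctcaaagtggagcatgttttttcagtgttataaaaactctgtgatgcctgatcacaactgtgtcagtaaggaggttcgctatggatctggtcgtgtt
Cyp2c55: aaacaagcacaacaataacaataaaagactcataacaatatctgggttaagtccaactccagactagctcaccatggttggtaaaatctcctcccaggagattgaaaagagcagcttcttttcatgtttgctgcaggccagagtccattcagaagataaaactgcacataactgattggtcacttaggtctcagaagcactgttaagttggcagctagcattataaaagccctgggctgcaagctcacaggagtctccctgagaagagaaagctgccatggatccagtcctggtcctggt
Cyp3a11: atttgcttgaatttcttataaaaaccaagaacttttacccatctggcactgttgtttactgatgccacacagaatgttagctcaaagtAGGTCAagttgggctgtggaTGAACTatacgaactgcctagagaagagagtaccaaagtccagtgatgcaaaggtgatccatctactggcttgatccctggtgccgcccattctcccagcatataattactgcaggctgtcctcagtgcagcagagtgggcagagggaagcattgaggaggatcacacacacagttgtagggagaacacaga
Cyp2c29 held AGGTCA at -154 to -149 before its start, and Cyp3a11 held AGGTCA at -162 to -157 and TGAACT at -142 to -137. Cyp2c50, whose window is not printed, held TGAACT at -35 to -30. The window of Cyp2c55 held neither motif. AGGTCA in either orientation was found in 16.3% of the 32851 windows of this length, AGTTCA in 14% and one or the other in 27.7%. Such matches describe these letters in the window and are not tests of binding. Cyp2c54 had no entry.

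Against the low doses, MT 100 ppm differed in 3 of 10415 genes (0.0288%) by edgeR, all P450 genes, with 336 (3.23%) higher and 329 (3.16%) lower at an unadjusted p under 0.05. Cyp2c29 ran from 3249 to 7295 CPM at MT 100 ppm, with a median of 6019, and from 861 to 2061 in the 14 low-dose mice. The 2 ranges did not overlap, as was also so for Cyp2c55 and for no other gene (2 genes, 0.0192%, higher at MT 100 ppm, and 0 lower). The log2 difference of MT 100 ppm from the low doses was 1.98 (95% interval 1.62 to 2.33, unadjusted p = 2.26e-18, adjusted p = 2.36e-14) for Cyp2c29, 1.95 (95% interval 1.5 to 2.4, unadjusted p = 1.61e-13, adjusted p = 8.38e-10) for Cyp2c55 and 0.93 (95% interval 0.55 to 1.3, unadjusted p = 2.83e-06, adjusted p = 0.00984) for Cyp2c54. Cyp3a11 had 0.91 (95% interval 0.49 to 1.32, unadjusted p = 4.06e-05, adjusted p = 0.106) and Cyp2c50 0.73 (95% interval 0.27 to 1.19, unadjusted p = 0.00200, adjusted p = 0.486). MT 50 ppm differed from the low doses in 0 genes (0%), with 367 (3.52%) at an unadjusted p under 0.05, and the log2 difference of Cyp2c29 was 0.71 (95% interval 0.36 to 1.06, unadjusted p = 8.55e-05, adjusted p = 0.890). The call of Cyp2c54 was lost without MT 100 ppm replicate 3 or 5 (adjusted p = 0.0724 and 0.0840), with 2 genes called in each. Among EA mice within blocks 1, 3 and 4 the log2 difference was 1.98, 2.1 and 2.04 (adjusted p = 0.0179, 3.96e-05 and 0.0585) for Cyp2c29, 2.6, 2.1 and 1.56 (adjusted p = 0.156, 0.00489 and 0.392) for Cyp2c55 and 0.80, 1.31 and 0.78 (adjusted p = 1.00, 0.0274 and 1.00) for Cyp2c54. All 3 genes passed within block 3, Cyp2c29 alone of them within block 1, and none of them within block 4. DESeq2 also called Cyp3a11 (adjusted p = 0.0322), and with no filter on low counts Cyp2b10 passed too. A filter at a median count of 50 left Cyp2c55 out of the test.

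**Figure D4:**
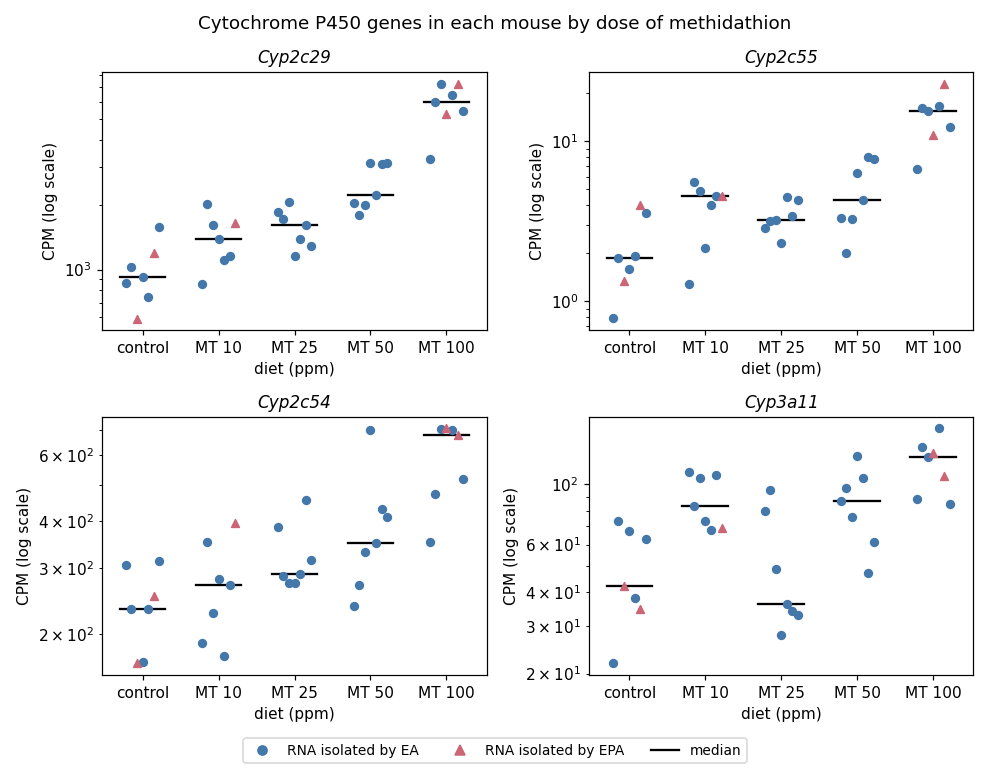
CPM on a log scale (y axis) of Cyp2c29, Cyp2c55, Cyp2c54 and Cyp3a11 in each mouse (7 a group) by dose of MT (x axis), with EA mice as circles, EPA mice as triangles and a bar at the median. All MT 100 ppm mice lie above all 14 low-dose mice for Cyp2c29 and Cyp2c55, and the low-dose mice overlap with the control mice in all 4 genes.

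Gene lists were then read for counts at an unadjusted p under 0.05, beside 8% of all genes (3.61% higher, 4.39% lower) and a median log2 fold change of -0.002 over all genes. In none of the 29 lists did a gene pass the adjusted threshold. Of CAR and PXR target enzymes 4 higher and 1 lower of 28 tested had an unadjusted p under 0.05, with a median log2 fold change of 0.10. The higher genes were Cyp2c29, Cyp2c55, Cyp2c50 and Ugt1a1, the glucuronosyltransferase of bilirubin, with a log2 fold change of 0.19 (adjusted p = 0.602). The lower gene was Abcc2, an export pump of the bile canaliculus, with -0.25 (adjusted p = 0.503). This list and its counts were chosen with results on these mice known, so it is no independent evidence. Other liver P450 genes had 1 higher and 0 lower of 31 tested, with a median of 0.057, and phase II conjugation genes 3 higher and 1 lower of 44 tested. Among the latter, Gsta3, a glutathione transferase, had 0.33 (adjusted p = 0.525) and Ugt2b35, a glucuronosyltransferase, -0.32 (adjusted p = 0.503).

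Of esterases and other hydrolases that bind organophosphates, 3 higher and 0 lower of 38 tested reached an unadjusted p under 0.05, a share near the background of 8%, with a median of 0.043. Ces1d, a carboxylesterase, had 0.69 (95% interval 0.15 to 1.22, unadjusted p = 0.0132, adjusted p = 0.525), Afmid 0.32 (adjusted p = 0.545) and Bphl 0.28 (adjusted p = 0.601). Ces1c, another carboxylesterase, ran from 3865 to 7201 CPM in the control mice and had a log2 fold change of 0.10 (95% interval -0.15 to 0.34, unadjusted p = 0.438, adjusted p = 0.871). Bche had -0.058 (95% interval -0.24 to 0.12, unadjusted p = 0.525, adjusted p = 0.900), Pon1, paraoxonase, 0.021 (95% interval -0.23 to 0.28, unadjusted p = 0.869, adjusted p = 0.976) and Ces2a 0.13 (95% interval -0.093 to 0.35, unadjusted p = 0.252, adjusted p = 0.794). The intervals of Ces1c, Bche, Pon1 and Ces2a lie within 1.5-fold. Ache, the target of the oxon, had a median count of 4.5 and was not tested. Its CPM ran from 0 to 0.975 in the control, from 0.102 to 0.804 at MT 10 ppm and from 0.175 to 0.438 at MT 25 ppm.

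Some acute phase genes, among them Saa1, Saa2 and Saa3, differed widely between mice of one group. Of the 43 acute phase and complement genes tested, 31 had an interval within 2-fold and 15 within 1.5-fold. The median log2 fold change of this list was -0.18 at the mean of both doses, -0.28 at MT 10 ppm and -0.079 at MT 25 ppm. At the mean of both doses 0 higher and 2 lower of 43 tested reached an unadjusted p under 0.05. At MT 10 ppm 0 higher and 8 lower did (18.6%, beside 9.97% of all genes), and at MT 25 ppm 0 higher and 1 lower. Between the doses 9 were higher and 1 lower at MT 25 ppm by the same measure (23.3%, beside 7.71%), and none passed the adjusted threshold in these comparisons. Saa1 and Saa2 encode serum amyloid A, a plasma protein of inflammation. In the control mice Saa1 had a lowest, median and highest level of 306, 13815 and 27579 CPM, against 125, 1677 and 12683 at MT 10 ppm and 698, 2829 and 30097 at MT 25 ppm. The log2 fold change was -0.68 (95% interval -2.57 to 1.21, unadjusted p = 0.503, adjusted p = 0.893). Saa2 had -0.91 (95% interval -3.17 to 1.34, unadjusted p = 0.450, adjusted p = 0.875), Saa3 -0.17 (95% interval -1.95 to 1.61, unadjusted p = 0.865, adjusted p = 0.976) and Orm2, orosomucoid, -0.89 (95% interval -2.78 to 1.00, unadjusted p = 0.396, adjusted p = 0.857). Orm2 had -2.58 (adjusted p = 0.471) at MT 10 ppm and 0.81 (adjusted p = 0.936) at MT 25 ppm. The intervals of Saa1, Saa2, Saa3 and Orm2 were wide, included 0 and did not exclude changes of several fold. Socs3, a feedback inhibitor of cytokine signalling, had -1.1 (adjusted p = 0.532) and C6, a complement component, -0.37 (adjusted p = 0.525).

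Genes that respond to growth hormone, stress and feeding gave several estimates past 2-fold, none of which passed. Cish is induced by growth hormone. The lowest, median and highest levels of Cish were 0.225, 2.66 and 7.46 CPM in the control mice, 0, 0.258 and 6.77 at MT 10 ppm and 0, 0.263 and 1.84 at MT 25 ppm. The fitted log2 fold change was -1.94 (95% interval -3.53 to -0.36, unadjusted p = 0.0134, adjusted p = 0.525), and its EPA minus EA difference was -2.0. Gadd45g, a stress-response gene, had -1.92 (95% interval -3.3 to -0.54, unadjusted p = 0.00462, adjusted p = 0.475), Plk3 -1.03 (adjusted p = 0.488) and Myc -1.22 (adjusted p = 0.538), whose EPA minus EA difference was -1.59. Cdkn1a, a p53 target that halts the cell cycle, had 0.35 (95% interval -0.88 to 1.58, unadjusted p = 0.577, adjusted p = 0.917). Fgf21, the fasting hormone of the liver, had 0.97 (adjusted p = 0.538) and Pdk4, which limits glucose oxidation, 1.03 (adjusted p = 0.532). Nr3c1, the glucocorticoid receptor gene, had -0.27 (adjusted p = 0.426) and Pck1, of gluconeogenesis, -0.57 (adjusted p = 0.594). Nr1h4, the bile acid receptor gene, had 0.27 (adjusted p = 0.475) and Tbx3, a pericentral transcription factor, 0.72 (adjusted p = 0.475). Cyp4a10, a PPARA target, had 0.28 (adjusted p = 0.952), and Cyp4a14 was not tested, with no more than 2 counts in any control or low-dose mouse.

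Metabolic and growth lists held 1 to 4 genes each at an unadjusted p under 0.05, beside 8% of all genes. PPARA targets and fatty acid oxidation genes had 2 higher and 1 lower of 42, median 0.054, with Acadvl, a dehydrogenase of long-chain acyl-CoA, at -0.18 (adjusted p = 0.604). Cholesterol synthesis and lipogenesis genes had 1 higher and 1 lower of 46, median 0.04, namely Elovl5, a fatty acid elongase, at 0.33 (adjusted p = 0.619) and Mvk, mevalonate kinase, at -0.38 (adjusted p = 0.557). Bile acid genes had 1 higher and 1 lower of 24, median -0.027, heme genes 1 higher and 0 lower of 16, median 0.0074, and glucocorticoid and feeding genes 1 higher and 2 lower of 34, median -0.017. Pericentral and periportal hepatocyte genes, which mark the ends of the liver lobule, had 1 higher and 0 lower of 15, median -0.073, and 0 higher and 1 lower of 16, median 0.0035. Growth hormone axis genes had 1 higher and 2 lower of 25, median 0.03, where Prlr, the prolactin receptor gene, stood at 0.44 (adjusted p = 0.594). Of p53 targets and growth arrest genes the count was 1 higher and 3 lower of 19, median 0.021, and of immediate early genes 1 higher and 2 lower of 16, median -0.11, with Dusp6, a phosphatase of ERK, at 0.53 (adjusted p = 0.475). Cell cycle genes had 2 higher and 1 lower of 26, median -0.0051: Pcna, the sliding clamp of replication, stood at 0.26 (adjusted p = 0.524), and Cdk2, a kinase of entry into replication, at -0.39 (adjusted p = 0.488). Tap1, a peptide transporter of antigen presentation, was the 1 interferon-stimulated gene, at 0.89 (adjusted p = 0.475).

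Among the remaining lists, the clock, unfolded protein, Nrf2 target and interferon lists held 0, 0, 1 and 1 genes at an unadjusted p under 0.05, with medians from -0.049 to 0.033. Erythroid markers had a median log2 fold change of -0.62. Of 5 tested, 3 had an unadjusted p under 0.05, all globin genes: Hba-a2 with -0.69 (adjusted p = 0.496), Hba-a1 with -0.62 (adjusted p = 0.524) and Hbb-bs with -0.69 (adjusted p = 0.533). The others were Alas2, of heme synthesis in red cells, with -0.37 (adjusted p = 0.753) and Car1, a carbonic anhydrase, with 0.09 (adjusted p = 0.941). Hba-a1 and Hba-a2 are near-identical copies, so they are not separate measures. The summed level of the list ran from 48.8 to 167 CPM in the control mice, from 55.6 to 90.7 at MT 10 ppm and from 41.5 to 76.5 at MT 25 ppm, and none of its members was at 0 in every mouse of a group. Within block 1, EA mice gave Hba-a2 a log2 fold change of 0.45, and within block 3 -1.24. Of 14 Kupffer cell and macrophage markers 0 reached an unadjusted p under 0.05, with a median of -0.07, and of 14 endothelial markers 1 did, Oit3, with 0.16 (adjusted p = 0.557). Markers of T, B and NK cells, neutrophils, cholangiocytes, and pancreas and adipose tissue, of which 8, 2, 3 and 2 were tested, had 0 at an unadjusted p under 0.05, as did the 14 stellate cell and fibroblast markers.

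**Figure D5:**
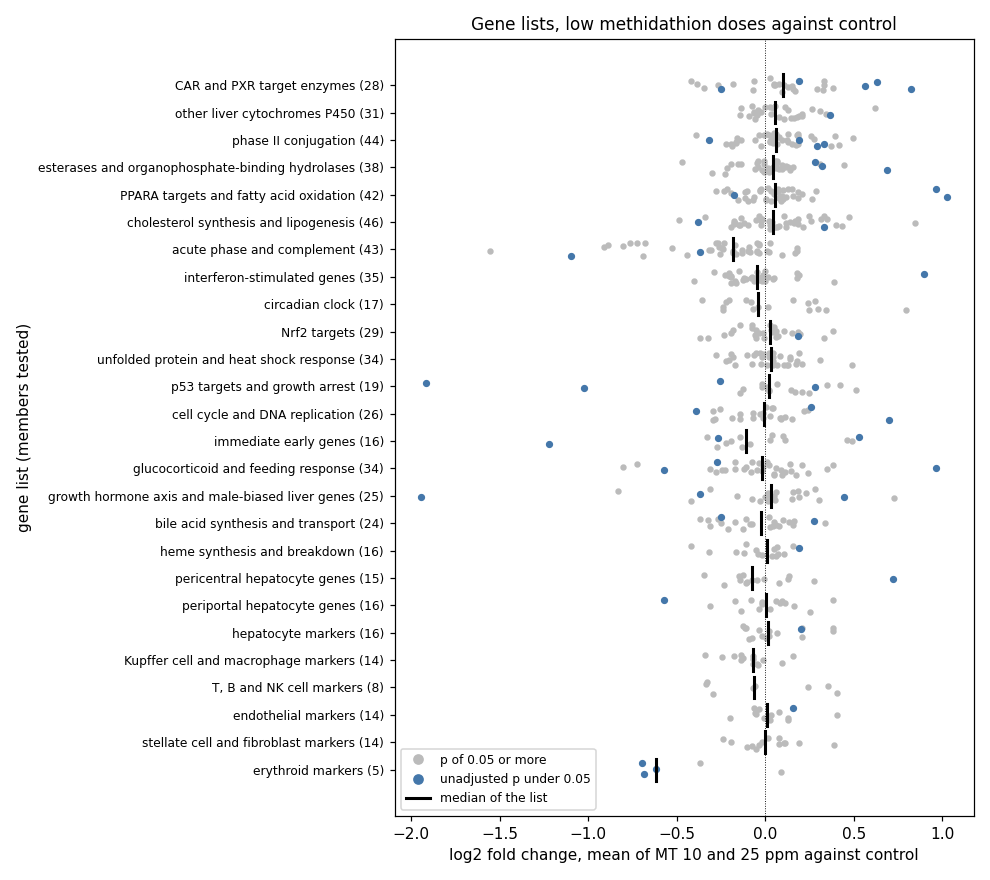
Log2 fold change at the mean of MT 10 and 25 ppm against control (x axis) of each tested member of the lists with 5 or more tested members (y axis, with the number tested), blue where the unadjusted p was under 0.05, with a bar at each list's median. The medians lie between -0.18 and 0.10 except for the 5 erythroid markers, and no member passed the adjusted threshold.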

How the data were processed

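Per the labels and the methods of the study, the authors trimmed TempO-Seq reads, aligned them with STAR to mm39 (GRCm39) and estimated counts of Ensembl transcripts with Partek E/M. These estimated counts were deposited per gene without normalization, and 18.7% of them were not whole. A second deposited table, of values adjusted by the authors, was not used. Counts were rounded and compared with edgeR 4.0.16 (quasi-likelihood test, TMM scaling) in R 4.3.3, in 1 model of all 84 mice with 12 groups, block and RNA isolator, for the 10415 of 17695 genes with a median count above 8. The low-dose contrast gave MT 10 and 25 ppm equal weight. P-values were adjusted by Benjamini-Hochberg over all genes tested, with a threshold of 0.05, and 95% intervals come from the standard error of the fit. CPM is the count scaled to a total of 1000000 per mouse. The fit was tested on simulated data, which held no block or isolator effects, unlike the measured data. Alternatives were DESeq2 1.42.0, limma 3.58.1 on log2 of CPM plus 1 or 0.25, and other scalings, filters, covariates, mice and single blocks. Figures were drawn in Python 3.11.15 with matplotlib 3.10.9.

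Gene names and positions come from GENCODE on GRCm39, which named 17660 of the 17695 genes, and start-site windows come from RefSeq on GRCm38.p6, matched by symbol. Named genes were the 10 of smallest p in each direction, a set of genes of xenobiotic metabolism, esterases, inflammation and p53, and up to 4 genes of smallest p in each gene list. Other genes were named after their values were seen, among them Lum, Prdx6, Magohb, Klhdc7b and Birc6. The members and gene lists were chosen with earlier results of these data known. Replicate numbers follow sample order and pair no mice. Cages of several mice were assigned to treatments, and which mice shared a cage is not given in the sources used here, so p-values measure the spread between mice. No cage term could be fitted, and the part of cages in the differences between groups was not tested. The p-values may therefore be too small.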

Additional observations from a re-analysis of the deposited data

Results flagged for a closer look

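The level of 42 genes in 3 groups of 7 mice was searched for a mouse far from the others of its group, by a gap past Dixon's 95% critical value. A mouse stood apart in 14 of 126 cases (11.1%), where chance gives about 5% for normally distributed levels. The levels were CPM without log transformation or adjustment for block and isolator, so 5% may not hold here. In all 14 cases the mouse was the highest of its group. In 7 of them it was MT 10 ppm replicate 7, the EPA mouse of that group: Fnip1 (10.9 CPM, next 6.34), Twsg1 (41.1 CPM, next 23.5), Brd1 (31.5 CPM, next 20.3), Nr1i2 (74.9 CPM, next 48.4), Ces2a (254 CPM, next 179), Pon1 (259.9 CPM, next 173) and Birc6 (390.1 CPM, next 235). Over all mice the EPA minus EA difference was 0.42 for Fnip1, 0.63 for Twsg1, 0.30 for Brd1, 0.34 for Nr1i2, 0.048 for Ces2a and 0.16 for Pon1 on the log2 scale, and its part in the level of this mouse was not tested. Got2-ps1 reached 525 CPM in control replicate 7, where the next mouse had 418. Ptk7 reached 3.05 CPM in MT 25 ppm replicate 2, where the next mouse had 2.09. Prkcsh reached 282 CPM in control replicate 5, where the next mouse had 202. Psma7 reached 7.01 CPM in MT 25 ppm replicate 1, where the next mouse had 4.61. Cyp2c50 reached 134 CPM in MT 25 ppm replicate 1, where the next mouse had 84.4. Por reached 117 CPM in MT 10 ppm replicate 1, where the next mouse had 49.7. Saa3 reached 114 CPM in MT 10 ppm replicate 3, where the next mouse had 27.3.

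Lum differed between the low doses, with a log2 difference of MT 25 ppm from MT 10 ppm of 0.60 (adjusted p = 0.0143 by edgeR), tested directly without control mice.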

How the results depend on the processing

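No paired analysis was possible because the labels give no replicate numbers and tie no single mice together. They give the block, which the model held as a covariate and which was also fitted singly. The alternatives for MT 50 and 100 ppm against the low doses and for RNA isolator, and the leaving out of single mice in all comparisons but that of the mean of both doses with control, were chosen after seeing the data.

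Counts of genes called moved as follows. For the mean of both doses against control (0 called), 1 gene passed in the 21 mice alone and 3 within block 4 (C1ra, Rpl35 and Suds3, against 1 EA control mouse), and leaving out single mice gave 0 to 2. For MT 10 ppm against control (0 called), 27 passed in EA mice alone and 2 within block 3 (Msh6 and Zfp157), and leaving out single mice gave 0 to 1, the 1 being Got2-ps1 without control replicate 7. For MT 25 ppm against control (0 called), 1 passed in the 21 mice alone and 1 within block 4 (Dnai1), and leaving out single mice gave 0 to 0. For MT 25 ppm against MT 10 ppm (1 called), DESeq2 gave 2 and EA mice alone 2 (Birc6 and Lum), while library size alone, both limma fits, the 21 mice alone, no covariates, RNA isolator alone and blocks 1, 3 and 4 gave 0, and leaving out single mice gave 0 to 1. For MT 100 ppm against the low doses (3 called), block 1 gave 1 (Cyp2c29), block 3 gave 5 (Cyp2c29, Cyp2c55, Cyp2c54, Slc13a2 and Snx10) and block 4 gave 1 (C1ra, with none of the 3 P450 genes), DESeq2 gave 4, a filter at a median count of 50 gave 2, and leaving out single mice gave 2 to 4. For MT 50 ppm against the low doses (0 called), block 4 gave 2 (Dipk2a and C1ra). For RNA isolator (4027 called), the 21 mice alone gave 2023. The fits with fewer mice hold fewer samples, and the cause of the other differences was not tested.

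None of 142 named genes was called in the main fit. Of their 5221 alternative values, 4905 stayed uncalled and within the standard error of the main estimate, and 313 stayed uncalled and moved further. The other 3 passed the threshold only in the alternative. They were Bccip (-0.41) and Prdx6b (-1.10) without control replicate 3 and Klhdc7b (1.55) in the 21 mice alone. Each gene had up to 16 alternatives that left out no single mouse, and 21 that left out 1 mouse each. Over the alternatives that leave out no single mouse, 73 of the 142 genes kept their sign, and when single mice were left out 134 did. Among the 20 genes of smallest p these counts were 18 and 20. These genes were chosen on this contrast in these mice, so a kept sign is no independent support for them. Depth limits genes near 3 counts a mouse.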

Other observations

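At MT 10 ppm, 8 of the 27 genes that passed in EA mice alone differed by at least 2-fold from control by edgeR. The genes with higher levels were Dipk2a, with a log2 fold change of 1.75 (adjusted p = 0.0303), Magoh with 1.64 (adjusted p = 0.0367), Selenos, a selenoprotein of the degradation of misfolded proteins in the endoplasmic reticulum, with 1.09 (adjusted p = 0.0303), and Prdx6 with 1.03 (adjusted p = 0.0442). The genes with lower levels were Prdx6b with -1.26 (adjusted p = 0.0419), Fnip1 with -1.25 (adjusted p = 0.0378), Eri1, an exonuclease of histone mRNA, with -1.09 (adjusted p = 0.0425), and Zfp157, a zinc finger gene, with -1.06 (adjusted p = 0.0303). None of the 8 passed in the model of all mice.

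Klhdc7b levels lay apart by RNA isolator within the control group, a difference that was not tested there. Its level was 6.0 and 3.20 CPM in the 2 EPA control mice and 0.311 to 1.83 CPM in the 5 EA control mice. The 13 EA mice of the low doses had 0.562 to 4.99 CPM, with 0.562 to 0.940 in block 1 and 1.96 to 4.99 in blocks 3 and 4. The EPA mouse at MT 10 ppm, of block 1, had 3.70 CPM. Both EPA control mice were of blocks 3 and 4. EA control mice had 0.311 and 0.470 CPM in block 1 and 0.466 to 1.83 in blocks 3 and 4.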
